A study of Mus musculus with 8 samples.

Results

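The NADPH oxidase of phagocytes and enzymes that dispose of superoxide and hydrogen peroxide were followed in mouse peritoneal macrophages, the resident phagocytes of the abdominal cavity. The set was chosen by gene symbol, with no rule on measured values, although earlier results of these data were known. It holds 9 genes of the 23735 loci in the deposited table: Cybb, Cyba, Ncf1, Ncf4, Rac1, Rac2, Sod1, Sod2 and Cat. All 9 were found, each as 1 locus, and all 9 passed the filter on low values (at least 1 RPKM in at least 2 libraries), as did 11272 loci in all. RPKM divides reads by transcript length in kilobases and by the size of the library, so levels can be set side by side between genes.

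The study compared 4 groups of 2 RNA-seq libraries, marked A and B. Every mouse was of strain C57BL/6J and 8 weeks old. The groups labelled WT were cells from MED1fl/fl mice, which carry the floxed allele without its deletion, and the groups labelled KO were cells from MED1ΔMac mice, in which the label places the loss of MED1 in macrophages. Cells of each genotype were kept for 6 h without LPS or with LPS at 50 ng/mL. MED1 belongs to Mediator, the complex that connects transcription factors to RNA polymerase. LPS comes from the outer membrane of Gram-negative bacteria and is sensed by TLR4. The Cre driver, the number of animals behind a library and the meaning of A and B are not stated in the labels or notes, so a p-value measures a difference against the spread between these libraries, which may be technical.

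In a phagocyte the oxidase is assembled on demand. Its membrane core is a heterodimer of gp91phox, encoded by Cybb, which carries electrons from NADPH to oxygen, and p22phox, encoded by Cyba, which stabilises it. On activation cytosolic subunits, among them the organiser p47phox (Ncf1) and the adaptor p40phox (Ncf4), and a Rac GTPase (Rac1 or Rac2) join the core, and superoxide is released into the phagosome or outside the cell. Superoxide dismutases turn superoxide into hydrogen peroxide, with SOD1 in the cytosol and intermembrane space and SOD2 in the mitochondrial matrix, and catalase (Cat) breaks hydrogen peroxide down to water and oxygen.

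The windows upstream of 5 genes are printed because these genes, which belong to one system, took different courses with LPS: Sod2 and Cybb were higher, and Sod1, Cyba and Cat were not. Each line gives the 250 bases before the annotated start site, 5′ to 3′ on the strand of the gene, from RefSeq on GRCm38.p6, a later build than the mm9 genome of the expression values. Promoter sequences were matched by symbol for 6 of the 9 genes. Capitals mark matches, on either strand, to 5 motifs: the NF-kB motif, the AP-1 motif TGANTCA, the PU.1 motif GAGGAA, the CCAAT box CCAAT and the GC box GGGCGG.
Sod2 (chr17:13007589-13007838, plus strand): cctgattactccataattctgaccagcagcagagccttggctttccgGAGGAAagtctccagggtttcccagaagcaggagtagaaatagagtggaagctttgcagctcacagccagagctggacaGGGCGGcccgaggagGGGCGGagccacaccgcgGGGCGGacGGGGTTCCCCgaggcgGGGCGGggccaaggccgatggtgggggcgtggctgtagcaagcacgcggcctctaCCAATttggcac
Sod1 (chr16:90220512-90220761, plus strand): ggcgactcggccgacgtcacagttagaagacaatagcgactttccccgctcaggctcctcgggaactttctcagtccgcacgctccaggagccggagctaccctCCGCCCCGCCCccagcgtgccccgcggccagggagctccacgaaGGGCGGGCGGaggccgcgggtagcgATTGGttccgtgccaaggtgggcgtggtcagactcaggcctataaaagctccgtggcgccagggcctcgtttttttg
Cybb (chrX:9469325-9469574, minus strand): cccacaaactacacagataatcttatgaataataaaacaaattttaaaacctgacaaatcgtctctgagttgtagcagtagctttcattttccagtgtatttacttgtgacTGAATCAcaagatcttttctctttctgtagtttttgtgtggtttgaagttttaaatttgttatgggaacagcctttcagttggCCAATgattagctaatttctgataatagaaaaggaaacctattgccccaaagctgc
Cyba (chr8:122432941-122433190, minus strand): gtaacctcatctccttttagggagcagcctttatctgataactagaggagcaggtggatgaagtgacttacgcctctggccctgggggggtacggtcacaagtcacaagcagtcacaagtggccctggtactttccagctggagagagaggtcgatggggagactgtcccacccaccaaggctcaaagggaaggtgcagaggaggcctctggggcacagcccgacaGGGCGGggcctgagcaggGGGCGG
Cat (chr2:103485154-103485403, minus strand): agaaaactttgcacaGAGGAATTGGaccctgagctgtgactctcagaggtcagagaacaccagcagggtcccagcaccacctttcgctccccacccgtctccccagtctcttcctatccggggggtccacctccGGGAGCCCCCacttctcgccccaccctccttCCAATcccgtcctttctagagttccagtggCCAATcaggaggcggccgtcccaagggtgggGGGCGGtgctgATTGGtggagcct

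The Sod2 window held an NF-kB match, GGGGTTCCCC, that ended 74 bases before the start site, with 4 GC boxes, a CCAAT box and a PU.1 match. The NF-kB motif was present in 7.25% of all 32851 windows of this length, the PU.1 motif in 23.3%, the CCAAT box in 33.8% and the GC box in 32.7%. The Sod1 window had 4 GC boxes, which overlap in pairs, and 1 CCAAT box, with no match to the NF-kB, AP-1 or PU.1 letters. In the Cybb window an AP-1 match, found in 6.75% of all windows, ended 133 bases before the start site and a CCAAT box ended 52 bases before it. The Cyba window held 2 GC boxes. The Cat window also held an NF-kB match, GGGAGCCCCC, which ended 107 bases before the start site, beside a PU.1 match that overlaps 1 of its 4 CCAAT boxes and 1 GC box. NF-kB letters thus stood upstream of Sod2, which was higher with LPS, and of Cat, which was not. By base composition the Cybb window stood apart, with 34% G and C against 60% for Cyba, 62% for Cat, 63.6% for Sod2 and 66.4% for Sod1, and a median of 52.4% over all windows. These matches describe letters in a window and were not tested as binding sites.

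Estimated depths lay between 7.04 and 14.5 M mapped reads, and the smallest read estimate of a member, for Sod1 in WT with LPS B, was about 738 reads, so that the counting error was at most 3.68%. Of the markers of peritoneal macrophages, Adgre1 (F4/80) lay between 277 and 709 RPKM and Lyz2 (lysozyme) between 4547 and 32317 RPKM. The summed level of 7 macrophage markers, most of it Lyz2, ranged from 31634 to 35311 RPKM in WT, 14956 to 19577 in WT with LPS, 11312 to 17884 in KO and 6156 to 7158 in KO with LPS. No other marker of the 7 had this full order of group means. On average Csf1r (294 RPKM), Itgam (449), Mertk (6.59) and Fcgr1 (1.19) were also lowest in KO with LPS, while Adgre1 and Cd68 were not. With LPS 2 of the 7 had higher and 5 lower fitted values in KO, and 0 passed. In that contrast 4 had an unadjusted limma p under 0.05, beside 4.42% of all loci. Without LPS 3 of the 7 had higher and 4 lower fitted values in KO, and 0 passed. Adgre1 had 409 and 396 RPKM in WT A and B and 277 and 709 in KO A and B, and Fcgr1 had 6.75 and 4.11 in WT and 6.29 and 17.3 in KO. The 5 B cell markers summed to 525 to 596 RPKM in WT, 387 to 582 in WT with LPS, 543 to 1614 in KO and 940 to 1348 in KO with LPS. Fewer cells of a type and less RNA per cell cannot be told apart in such bulk samples.

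Med1 (mm9, chr11:98013468-98054607, minus strand), the targeted gene, was measured at 21.7 and 24.8 RPKM in untreated WT, 17.6 and 23.4 in untreated KO, 24.7 and 21.6 in LPS-treated WT, and 24.4 and 20.3 in LPS-treated KO. The KO and WT libraries overlapped in both conditions, and the fitted KO to WT difference was -0.18 (SE 0.22) without LPS and -0.05 (SE 0.22) with LPS on the log2(RPKM + 1) scale, with an adjusted p of 1 in each. The value covers the whole gene, and the labels do not name the deleted part, so it is no check of the deletion, and KO means the libraries labelled so.

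Across the set, LPS was accompanied by higher Sod2 and, less firmly, higher Cybb, while the partner of each (Sod1 and Cyba) had lower fitted values. In each genotype 1 of the 9 genes, Sod2, passed the test for LPS (limma, Benjamini-Hochberg adjusted p under 0.05 over all loci). The same call was made for 6.31% of all loci in WT (3.17% higher and 3.14% lower) and 6.62% in KO (3.31% in each direction). Leaving out 1 library moved the number of loci called from 711 to between 9 (without WT A) and 2242 (without WT with LPS A) in WT, and from 746 to between 15 (without KO with LPS B) and 1546 (without WT with LPS B) in KO. With the LPS effect averaged over both genotypes, a contrast added after the data had been seen, Sod2 and Cybb passed, beside 30.3% of all loci (8.46% higher and 21.8% lower). The median log2 change of the 9 genes was 0.03 in WT and -0.24 in KO, beside -0.25 and -0.28 over all loci, so a typical locus had a lower RPKM with LPS. By the ranges of the libraries, 3 of the 9 genes lay higher and 3 lower with LPS in WT, beside 18.2% and 45.9% of all loci, and 2 lay higher and 3 lower in KO, beside 15.1% and 48%. At the median locus, scaling each library by median ratios raised the LPS change by about 0.25 in WT and 0.27 in KO, and quantile normalization by about 0.21 and 0.22. Among the loci called with the averaged contrast, the split was 954 higher and 2456 lower as deposited, 1586 and 1523 with median ratios, and 1352 and 1732 with quantiles. In KO it was 373 and 373 as deposited, 465 and 309 with median ratios, and 472 and 422 with quantiles, and in WT 357 and 354 as deposited, 514 and 354 with median ratios, and 512 and 482 with quantiles.

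**Figure D1:**
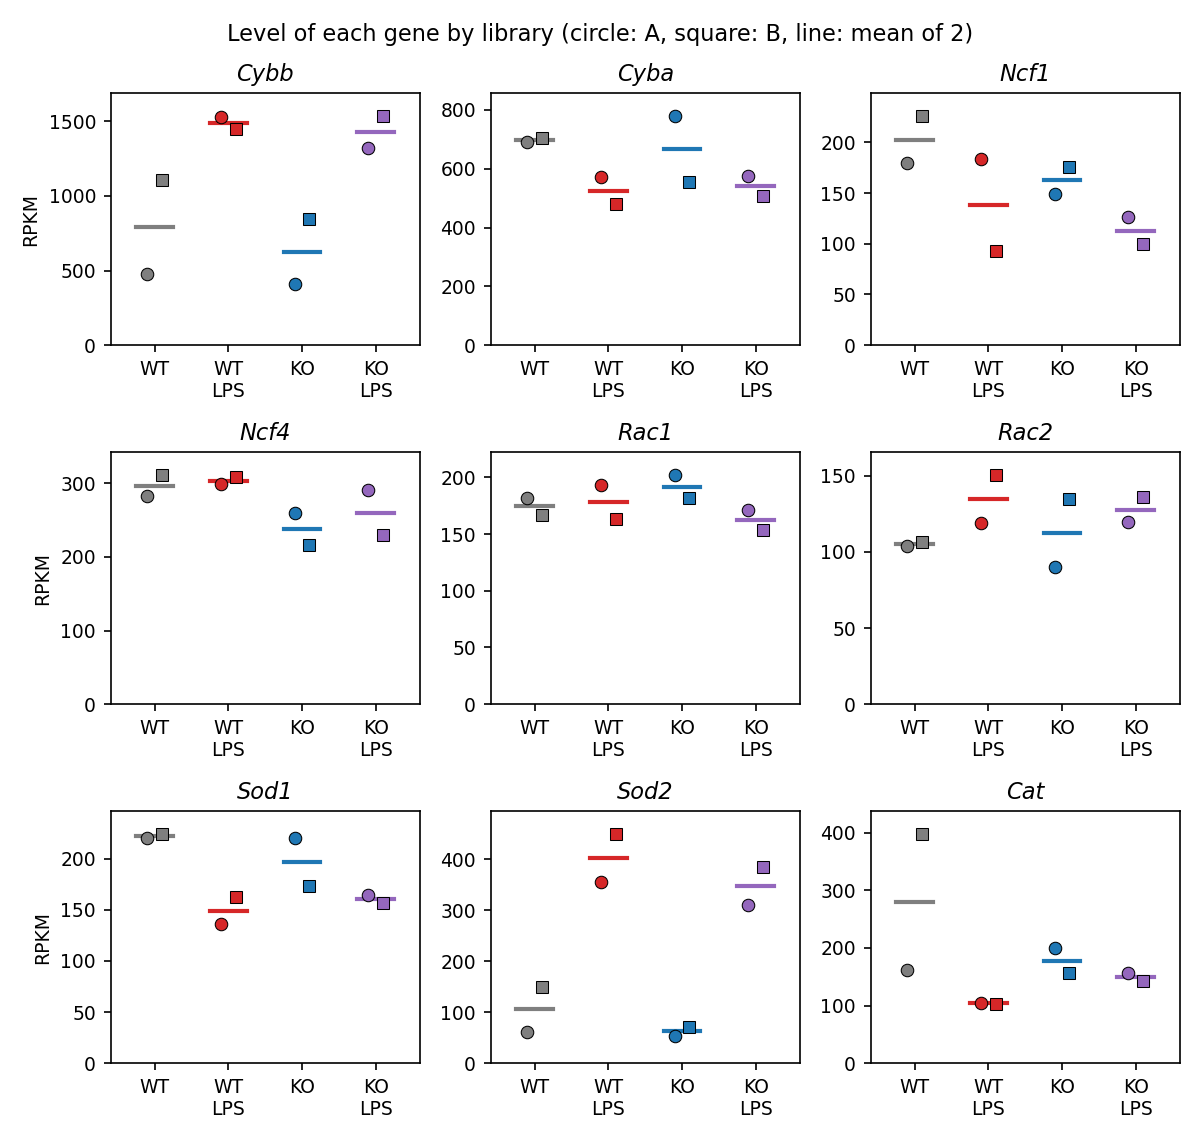
RPKM (linear axis from 0) of each of the 9 genes in every library, with circles for library A, squares for library B and a line at the mean of the 2 libraries of a group. For Cybb and Sod2 all 4 LPS libraries lie above all 4 untreated ones, for Sod1 all 4 lie below, and for the other 6 genes the treated and untreated libraries overlap. Of all tested loci, 9.2% lie above in this way and 30% below.

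In the catalytic core, higher values with LPS were seen for Cybb and not for Cyba. Cybb (mm9, chrX:9012378-9064897, minus strand) was the most abundant of the 9 genes with LPS, and its level was 478 and 1107 RPKM in the untreated WT libraries A and B, 408 and 846 in untreated KO, 1529 and 1446 in LPS-treated WT, and 1318 and 1532 in LPS-treated KO. The 4 LPS libraries thus lay close together and above all 4 untreated ones, among which library A was low in both genotypes. The untreated A libraries were also lower than the B libraries in some cell type markers, though not in all. The 4 mast cell markers summed to 0.703 RPKM in WT A and 71.8 in WT B, and to 0.249 in KO A and 162 in KO B. Timd4, a marker of large peritoneal macrophages, had 2.47 and 42.9 RPKM in WT A and B and 1.13 and 71.5 in KO A and B. Of the 4 such markers, Icam2 was likewise lower in A in both genotypes. Gata6 (9.13 RPKM in WT A and 8.74 in WT B) and Selp (4.85 and 3.11) were higher in A in WT and lower in A in KO. The 5 B cell markers summed to 596 RPKM in WT A and 525 in WT B, and to 543 in KO A and 1614 in KO B. With LPS the mast cell markers were again lower in A. Their sums in A and B were 23.4 and 84.9 RPKM in WT, and 3.06 and 66.9 in KO. Timd4 with LPS had 25.1 and 44.0 RPKM in WT A and B, and 20.2 and 31.8 in KO. The B cell sums with LPS were higher in A in both genotypes. Cybb with LPS was higher in A in WT and lower in A in KO. The part of these markers in the Cybb values was not tested. Such separation of 4 LPS from 4 untreated libraries was seen upward for 9.2% of all loci. The fitted log2 change with LPS was 1.03 (95% interval -0.08 to 2.14, adjusted p = 0.196) in WT and 1.27 (0.16 to 2.38, adjusted p = 0.133) in KO, neither past the threshold. The WT change was 0.43 without WT A and 1.63 without WT B, and the KO change 0.75 without KO A and 1.80 without KO B. Averaged over both genotypes it was 1.15 (SE 0.34), a 2.22-fold rise in RPKM + 1 with an adjusted p of 0.0390. This call was lost in 8 of 16 alternatives, where adjusted p ran from 0.0131 to 0.125. It was lost with quantile normalization (0.0589), with no filter (0.0854), and on leaving out WT A (0.111), WT with LPS A (0.0723), WT with LPS B (0.101), KO A (0.0789), KO with LPS A (0.0784) or KO with LPS B (0.125).

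Cyba (mm9, chr8:124948672-124956840, minus strand), whose product is needed for a stable gp91phox, was measured at 691 and 704 RPKM in untreated WT, 778 and 554 in untreated KO, 570 and 481 in LPS-treated WT, and 576 and 506 in LPS-treated KO. The LPS libraries were lower than the untreated ones in WT, and the 2 sets overlapped in KO. Fitted log2 changes were -0.41 for WT (adjusted p = 0.308) and -0.28 for KO (0.472), and the KO value turned to 0.03 with median-ratio scaling. An annotated gene on the opposite strand, Gm20388, overlaps Cyba, and the sources used here do not give the strandedness of the libraries, so reads of the 2 genes cannot be told apart.

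The ratio of Cybb to Cyba within a library is free of library scaling. It was 0.692 and 1.57 in untreated WT, 0.524 and 1.53 in untreated KO, 2.68 and 3.01 in LPS-treated WT, and 2.29 and 3.03 in LPS-treated KO. Cybb thus stood above Cyba in all 4 LPS libraries, while among the untreated libraries it stood below Cyba in A and above it in B of each genotype. The mean log2 ratio was 1.50 higher in the LPS libraries (1.45 ± 0.19 against -0.05 ± 0.80, SD, n = 4 each). A two-sided exact permutation test over 8 libraries gave p = 0.0286, the smallest that 70 splits allow, and 0.0857 after adjustment over 6 such ratio tests, which were added after the data had been seen. Between genotypes the log2 ratio differed by -0.17 (exact permutation p = 0.771). That test pooled treated and untreated libraries, so the LPS difference widened the spread within each genotype (SD 1.11 in KO and 0.97 in WT). It could therefore hardly detect a genotype difference.

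**Figure D2:**
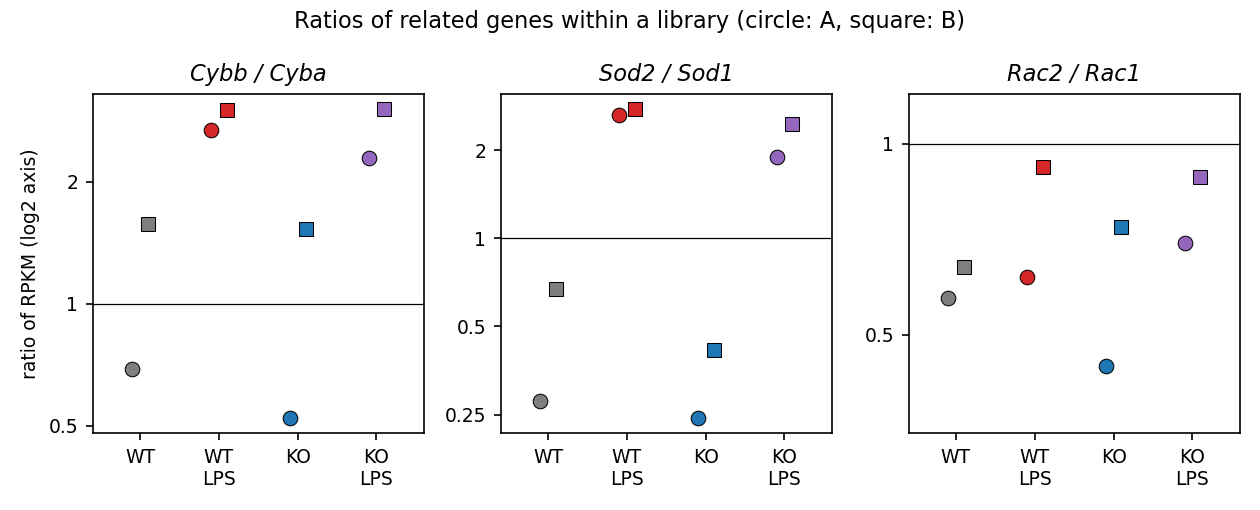
Ratio of RPKM between related genes within each library, on a log2 axis, with circles for library A and squares for library B and a line at 1. The ratio of Sod2 to Sod1 lies below 1 in every untreated library (at most 0.669) and above 1 in every LPS library (at least 1.89), and Rac2 stays below Rac1 in all 8.

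Of the cytosolic subunits, the organiser Ncf1 (mm9, chr5:134695923-134705495, minus strand) had 179 and 226 RPKM in untreated WT, 149 and 176 in untreated KO, 184 and 92.9 in LPS-treated WT, and 127 and 99.3 in LPS-treated KO. The LPS libraries were below the untreated ones in KO, and in WT library A with LPS lay between the 2 untreated values. With LPS the fitted log2 change was -0.62 in WT (adjusted p = 0.262), -0.52 in KO (0.324) and -0.57 averaged (0.106), so no call was made. Without WT with LPS A the WT change reached -1.10 with an adjusted p of 0.044, and the averaged change an adjusted p of 0.0174, against 0.106 with all libraries. The annotated gene Gtf2ird2 overlaps Ncf1 on the opposite strand.

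The adaptor Ncf4 (mm9, chr15:78075231-78093010, plus strand) had nearly equal values with and without LPS. Its level was 283 and 311 RPKM in untreated WT, 259 and 216 in untreated KO, 299 and 308 in LPS-treated WT, and 291 and 230 in LPS-treated KO. The log2 change was 0.03 (95% interval -0.48 to 0.54) in WT and 0.13 (-0.38 to 0.64) in KO, intervals that leave room for changes of up to about 0.64 in size. The KO libraries were below the WT libraries both without and with LPS.

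The GTPases showed no called change. Rac1 (mm9, chr5:144266346-144288904, minus strand), the ubiquitous form, was measured at 182 and 167 RPKM in untreated WT, 202 and 182 in untreated KO, 194 and 163 in LPS-treated WT, and 171 and 153 in LPS-treated KO. Rac2 (mm9, chr15:78389599-78403213, minus strand), the form of blood cells, had 104 and 107 RPKM in untreated WT, 90.1 and 135 in untreated KO, 119 and 150 in LPS-treated WT, and 120 and 136 in LPS-treated KO. Rac1 libraries with LPS were below the untreated ones in KO and overlapped them in WT, and Rac2 libraries with LPS were above the untreated ones in WT and overlapped them in KO. The log2 change was 0.03 in WT and -0.24 in KO for Rac1, and 0.34 and 0.21 for Rac2. With median-ratio scaling the Rac1 change in KO was 0.07.

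Rac2 remained the less abundant of the pair in every library, at a ratio to Rac1 between 0.446 and 0.920. Its mean log2 ratio was 0.38 higher with LPS, and the 2 sets of libraries overlapped (two-sided exact permutation p = 0.143, adjusted over 6 tests 0.286).

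Sod2 (mm9, chr17:13200705-13210985, plus strand), the mitochondrial dismutase, was the gene of the set that moved most with LPS. It had 61.3 and 150 RPKM in untreated WT, 53.8 and 71.6 in untreated KO, 356 and 448 in LPS-treated WT, and 310 and 385 in LPS-treated KO. Every LPS library exceeded the highest untreated library, WT B, by more than the whole range of the untreated libraries. The log2 change was 2.05 (SE 0.41, adjusted p = 0.0334) in WT and 2.46 (SE 0.41, adjusted p = 0.0218) in KO, equal to 4.14-fold and 5.49-fold in RPKM + 1. Averaged over both genotypes it was 2.25 (SE 0.29, adjusted p = 0.00334).

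The averaged call for Sod2 held in all 16 alternatives, with a log2 change of 1.93 to 2.57. The call in WT was lost in 6 of 17 alternatives (adjusted p 0.00597 to 0.197), and in KO in 5 of 17 (0.00368 to 0.164). The WT change was 1.41 without WT A and 2.69 without WT B, and the KO change ran from 2.25 to 2.76 over the 17 alternatives. In WT the call was lost with no filter (0.0682), with only the compared groups in the fit (0.0887), and without WT A (0.147), WT with LPS B (0.197), KO with LPS A (0.0576) or KO with LPS B (0.0573). In KO it was lost with no filter (0.0524) and without KO A (0.0668), KO B (0.0761), KO with LPS A (0.0758) or KO with LPS B (0.164).

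Sod1 (mm9, chr16:90220987-90226567, plus strand), the copper and zinc dismutase, lay at 220 and 224 RPKM in untreated WT, 221 and 173 in untreated KO, 136 and 162 in LPS-treated WT, and 164 and 157 in LPS-treated KO. All 4 LPS libraries were below all 4 untreated ones, a pattern seen in 30% of all loci. The log2 change was -0.58 in WT (adjusted p = 0.125), -0.28 in KO (0.391) and -0.43 averaged (0.0636), and none passed. Without KO B the averaged change had an adjusted p of 0.0452, and with median-ratio scaling the KO value was 0.03.

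The 2 dismutases exchanged rank with LPS. The ratio of Sod2 to Sod1 was 0.279 and 0.669 in untreated WT, 0.244 and 0.414 in untreated KO, 2.62 and 2.76 in LPS-treated WT, and 1.89 and 2.45 in LPS-treated KO. Its mean log2 value was 2.70 higher with LPS (1.27 ± 0.24 against -1.43 ± 0.65, SD, n = 4 each), with a two-sided exact permutation p of 0.0286, the smallest possible, and 0.0857 adjusted over the 6 tests. Between genotypes the log2 ratio differed by -0.38 (exact permutation p = 0.657). That test pooled treated and untreated libraries, so the LPS difference widened the spread within each genotype (SD 1.63 in KO and 1.61 in WT). It could therefore hardly detect a genotype difference. With LPS both KO ratios lay below both WT ratios, and without LPS the 2 sets overlapped, neither of which was tested alone.

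Cat (mm9, chr2:103294006-103325317, minus strand), which breaks down hydrogen peroxide, was at 162 and 397 RPKM in untreated WT, 200 and 156 in untreated KO, 105 and 103 in LPS-treated WT, and 157 and 143 in LPS-treated KO. WT B stood far above the 7 other libraries, none of which exceeded 200 RPKM. The WT libraries with LPS were the lowest of the 8, and in KO the treated and untreated libraries overlapped. For Cat the log2 change was -1.28 (95% interval -2.20 to -0.36, adjusted p = 0.0885) in WT and -0.24 (-1.16 to 0.68, adjusted p = 0.701) in KO. Without WT B the WT change was -0.63, and without WT A the averaged change passed with an adjusted p of 0.0196, against 0.0737 with all libraries.

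**Figure D3:**
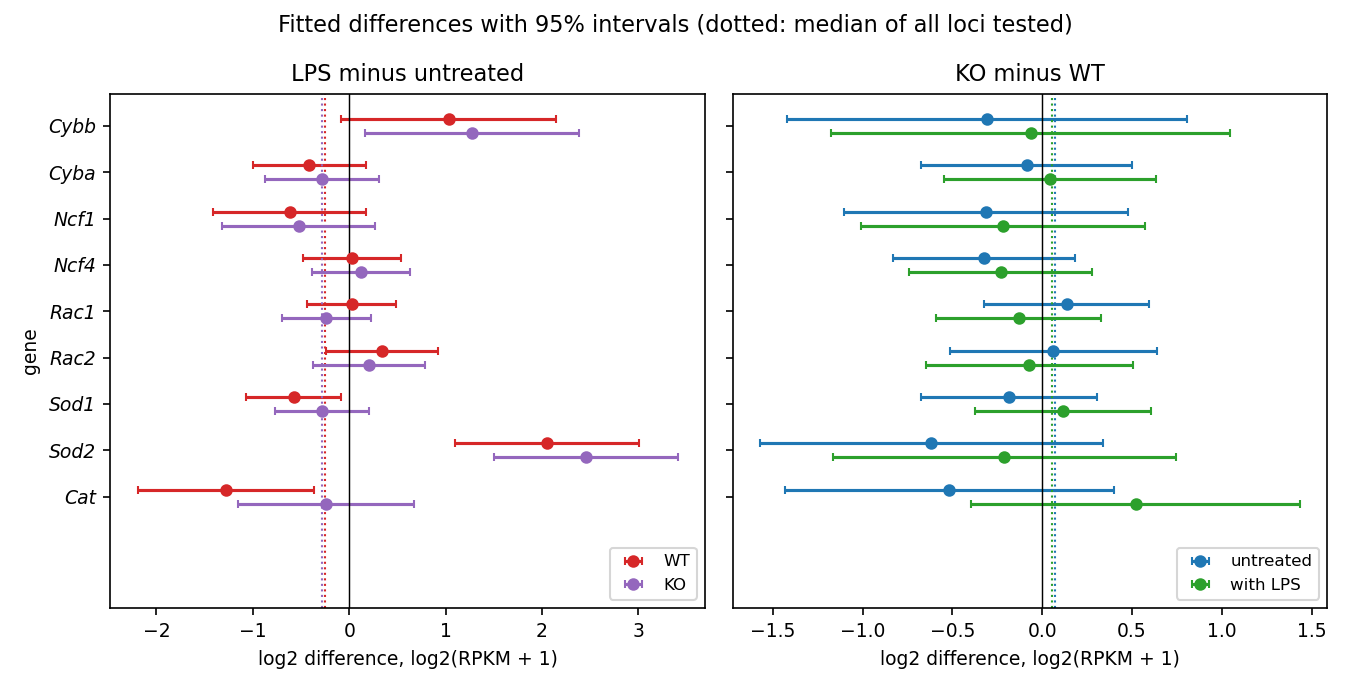
Fitted differences on the log2(RPKM + 1) scale with 95% intervals for the 9 genes, LPS minus untreated in each genotype on the left and KO minus WT in each condition on the right, with dotted lines at the median of all tested loci. For Sod2 both LPS intervals lie above 1, and every interval for KO minus WT includes 0.

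No difference between KO and WT macrophages passed the test for any of the 9 genes. None passed without LPS, with LPS or in the interaction, which is the LPS change in KO minus that in WT, and none had an unadjusted p under 0.05 in these 3 limma contrasts. Calls were also rare over all loci, at 0.0266% without LPS, 0.00887% with LPS and 0.0355% for the interaction. The intervals are wide. For Sod2 the KO to WT difference was -0.62 (95% interval -1.57 to 0.34) without LPS and -0.21 (-1.17 to 0.74) with LPS, and for Cybb it was -0.31 (-1.42 to 0.80) and -0.07 (-1.18 to 1.05).

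By the ranges of the libraries, Ncf4 was lower in KO than in WT in both conditions and Ncf1 was lower in KO without LPS. Cat was higher in KO with LPS. Such separation of 2 against 2 libraries was seen for 5.86% of all loci as lower in KO without LPS and for 17.8% as higher, where the set had none, and with LPS for 11.7% as lower and 18.7% as higher. For Ncf4 the fitted difference was -0.32 (-0.83 to 0.18) without LPS and -0.23 (-0.74 to 0.28) with LPS. For Cat it was -0.52 (-1.44 to 0.40) without LPS and 0.52 (-0.40 to 1.44) with LPS. The Cat interaction, 1.04 (-0.26 to 2.34), did not pass, with an adjusted p of 1. Its size varied most with the untreated WT libraries. Over 16 alternatives it ran from 0.39 without WT B to 1.68 without WT A.

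The order of the 9 genes by mean RPKM shifted most for Sod2 and, in WT, for Cat. In WT without LPS it read Cybb, Cyba, Ncf4, Cat, Sod1, Ncf1, Rac1, Rac2 and Sod2, from 793 ± 444 RPKM for Cybb (SD, n = 2) to 105 ± 62.5 for Sod2. In KO without LPS Cyba (666 ± 159) came before Cybb (627 ± 310), and Sod2 (62.7 ± 12.6) was again last. With LPS the first 4 were Cybb, Cyba, Sod2 and Ncf4 in both genotypes, and the libraries of each of these 4 did not overlap those of the next gene down. Sod2 then reached 402 ± 65.3 RPKM in WT and 347 ± 52.7 in KO. Last with LPS were Cat in WT (104 ± 1.68 RPKM), from rank 4 without LPS at 279 ± 166, and Ncf1 in KO (113 ± 19.4). Neighbours whose libraries overlapped without LPS were Cybb and Cyba in both genotypes, the run from Ncf4 to Rac1 in WT, the run from Ncf4 to Ncf1 in KO, and Rac2 and Sod2 in WT. With LPS they were Sod1, Ncf1 and Rac2 in WT, and in KO Rac1 with Sod1 and Rac2 with Ncf1.

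Profiles across the 8 libraries were compared with those of all tested loci by the root mean square difference of log2(RPKM + 1), each centred on its own mean. Nearest to Sod2 were Mmp14 (0.12), a membrane-bound matrix metalloproteinase, Pilra (0.19), an inhibitory receptor of myeloid cells, and Mthfd2 (0.19), a mitochondrial enzyme of folate metabolism. Mmp14 had 35.1 and 92.5 RPKM in WT and 263 and 325 in WT with LPS, with the same higher value in library B as Sod2. Nearest to Cybb were Ebi3 (0.20), a subunit of the cytokines IL-27 and IL-35, Relb (0.20), an NF-kB subunit, and Cd82 (0.20), a tetraspanin.

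Other parts of the system were read from lists of related genes. Of 10 partners and regulators of the oxidase, 9 were tested and 0 passed for LPS in either genotype alone, although 4 in WT and 3 in KO had an unadjusted limma p under 0.05, beside 29.3% and 29.2% of all loci. In the averaged contrast Rap1b, a GTPase, was higher (0.54, adjusted p = 0.0479). Among those lower there were Nrros (-1.41, adjusted p = 0.0287), a membrane protein that limits gp91phox, and Arhgdib (-0.64, adjusted p = 0.0453), which holds Rac in the cytosol. Rap1b lost its call in 9 of 16 alternatives, Nrros in 6 and Arhgdib in 9, each most clearly without KO with LPS B (adjusted p = 0.175, 0.102 and 0.171). The list median in the averaged contrast was -0.05, against -0.26 over all loci. The chaperone Cybc1, needed for a stable core, lay between 43.6 and 57.2 RPKM in all 8 libraries.

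Among 9 genes of the other NADPH oxidases and their partners, only Nox1 was tested, and it did not exceed 1.54 RPKM in any library. Nox3, Duox1, Duox2, Duoxa1 and Duoxa2 were listed at 0 in every library and Nox4 did not exceed 0.018 RPKM, so no oxidase gene of the list came near the level of Cybb.

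Of 16 Rac exchange factors and kinases of the oxidase, 1 was higher and 1 lower with LPS in each genotype, against 6.31% and 6.62% of all loci called. Pik3cg, the catalytic subunit of PI3K gamma, was higher in WT (1.24, adjusted p = 0.0240) and likewise in KO (0.93, 0.0479). Dock2, an exchange factor for Rac, was lower in WT (-1.32, adjusted p = 0.0395). Pak1, a kinase that acts downstream of Rac, was lower in KO (-1.86, adjusted p = 0.0386). Averaged over genotypes 1 was higher and 5 were lower (Dock2, Pak1, Akt1, Irak4 and Prkcb), beside 8.46% and 21.8% of all loci. The calls for Pik3cg, Dock2 and Pak1 held in all 16 alternatives, while those for Akt1 (adjusted p = 0.0952), Irak4 (0.132) and Prkcb (0.146) were lost without KO with LPS B, among others. The calls within 1 genotype were less firm. That for Pik3cg in WT was lost in 6 of 17 alternatives, most clearly without WT A (adjusted p = 0.175), and in KO in 9, most clearly without KO with LPS B (0.26). Dock2 in WT was lost in 7, most clearly without WT A (0.225), and Pak1 in KO in 7, most clearly without KO with LPS B (0.256).

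Of 21 genes of peroxide removal and dismutase partners, 19 were tested, and in the averaged contrast 5 were higher and 7 lower, beside 8.46% and 21.8% of all loci. Higher were Prdx5 (1.85, adjusted p = 0.0104), a peroxiredoxin of mitochondria and peroxisomes, Txnrd1 (1.59, 0.00907), the cytosolic thioredoxin reductase, Srxn1, Glrx and Gsr. Lower were the glutathione peroxidases Gpx1, Gpx3, Gpx4 and Gpx7, the peroxiredoxins Prdx2 and Prdx4, and Ccs (-1.25, adjusted p = 0.00361), the copper chaperone that loads SOD1. Gpx4, which reduces lipid peroxides, changed by -1.22 (adjusted p = 0.00702) and Gpx1 by -1.96 (0.0216).

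Prdx5 had 451 and 1177 RPKM in untreated WT, 431 and 613 in untreated KO, 2307 and 3186 in LPS-treated WT, and 1480 and 2176 in LPS-treated KO, so that like Sod2 it was higher in all 4 LPS libraries than in any untreated one. Ccs had 15.1 and 13.7 RPKM in untreated WT, 14.5 and 14.6 in untreated KO, 6.41 and 3.998 in LPS-treated WT, and 6.23 and 5.71 in LPS-treated KO. Like its client Sod1, Ccs was lower in all 4 LPS libraries than in any untreated one. Such separation was seen downward for 30% of all loci and upward, as for Prdx5, for 9.2%. The averaged calls for Prdx5, Txnrd1, Glrx, Gpx4 and Ccs held in all 16 alternatives, while those for Srxn1, Gsr, Gpx1, Gpx3, Gpx7, Prdx2 and Prdx4 were lost in at least 2. Without KO with LPS B the adjusted p was 0.0781 for Srxn1, 0.122 for Gsr, 0.0777 for Gpx1, 0.0549 for Gpx3, 0.149 for Gpx7 and 0.0515 for Prdx2, and without WT B it was 0.0509 for Prdx4. With median-ratio scaling the Prdx4 change was -0.39 (adjusted p = 0.114), against -0.69 as deposited.

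In a single genotype 3 of the 19 passed in WT and 3 in KO, beside 6.31% and 6.62% of all loci. In WT Glrx was higher (1.67, adjusted p = 0.0293), and Ccs (-1.34, 0.0240) and Gpx4 (-1.35, 0.0367) were lower. In KO Txnrd1 (2.12, 0.0283) and Srxn1 (2.05, 0.0445) were higher and Ccs (-1.16, 0.0348) was lower. Each of these calls was lost in 4 to 7 of 17 alternatives. The adjusted p rose most without WT with LPS B for Glrx (0.177) and Gpx4 (0.197), without WT A for Ccs in WT (0.171), and without KO with LPS B for Ccs in KO (0.242), Txnrd1 (0.198) and Srxn1 (0.234). Whether Glrx, Txnrd1 or Srxn1 responded differently between the genotypes was read from the interaction, in which none of the 19 passed and 2 had an unadjusted limma p under 0.05, beside 1.63% of all loci.

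**Figure D4:**
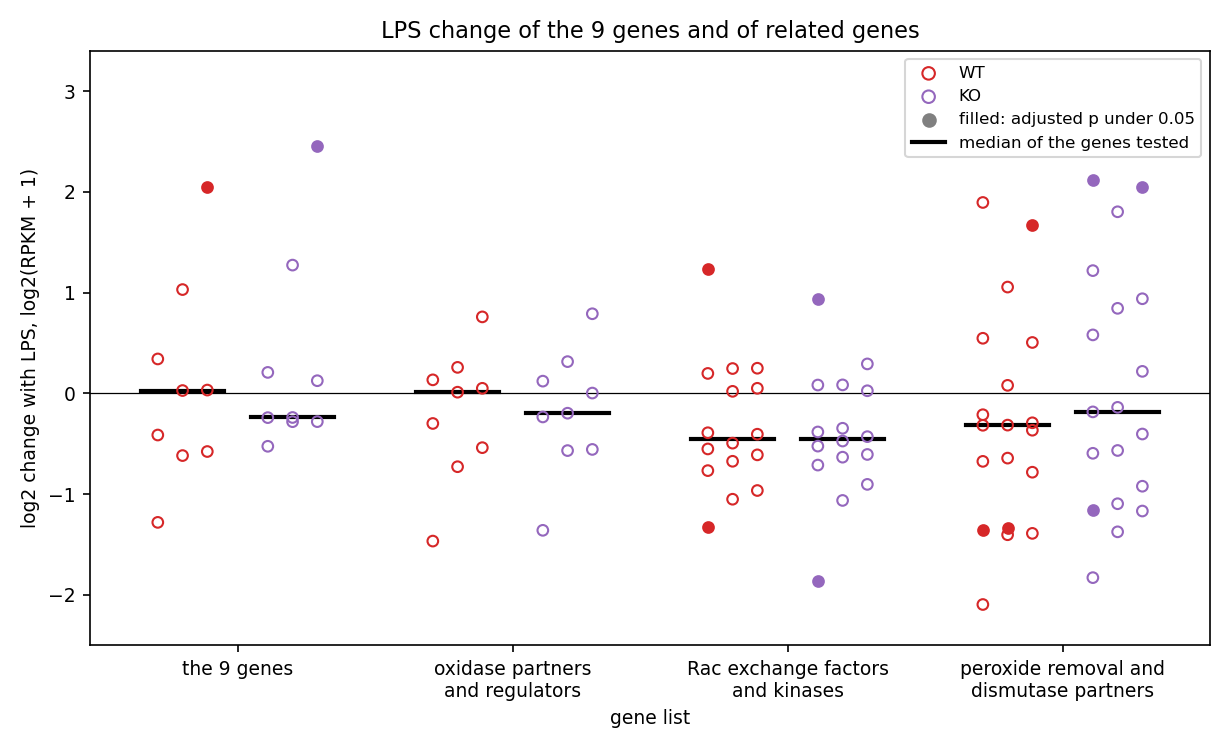
Log2 change with LPS on the log2(RPKM + 1) scale for each tested gene of the 4 lists, in WT and in KO, with filled circles where the adjusted p was under 0.05 and a black line at the median of the list. The filled circle at 2.05 in WT and the one at 2.46 in KO in the first column are Sod2. The lists of Rac exchange factors and of peroxide removal have filled circles above and below 0 in each genotype.

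Neutrophils also carry the phagocyte oxidase, and their markers did not move together with LPS. The summed level of the 9 neutrophil markers in the table was 40.1 to 73.9 RPKM in WT, 122 to 136 in WT with LPS, 43.6 to 57.2 in KO and 79.7 to 134 in KO with LPS, most of it S100a8. Camp, a granule peptide, had 0 and 3.72 RPKM in untreated WT, 0 and 0.609 in untreated KO, 13.0 and 27.5 in LPS-treated WT, and 9.83 and 12.0 in LPS-treated KO, and was called as higher in the averaged contrast in all 16 alternatives. S100a8 was higher in the averaged contrast (2.15-fold in RPKM + 1, adjusted p = 0.0121). S100a9, at most 5.63 RPKM, and Retnlg, at most 7.45 RPKM, had lower fitted values with LPS (-0.80, adjusted p = 0.410, and -0.92, adjusted p = 0.422). The defining granule gene Ngp was listed at 0 in all 8 libraries, Ltf did not exceed 0.143 RPKM, and Mpo and Elane were above 0 in KO B alone. Cybb was above 400 RPKM in every library, but levels of different genes do not give the share of a cell type. The part of these markers, of the mast cell markers, of the B cell markers and of Lyz2 and the other macrophage markers in the values of the 9 genes was not tested.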

How the data were processed

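The deposited table holds RPKM, which the authors computed per locus for 8 RNA-seq libraries. Per the submitters' processing notes, bcl2fastq, TopHat2 2.0.14, Cufflinks 2.2.1 and the mm9 genome were used. The sources used here do not give the gene annotation or strandedness. Of 24192 lines, 457 repeat a locus with the same values, and each of the 23735 loci was used once. Read counts were estimated from steps between low values (96.5% of 1976 low loci came out whole, within 0.1 read plus 0.02 per read). Positions come from GENCODE vM1 on mm9.

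Loci with at least 1 RPKM in 2 libraries (11272) were tested as log2(RPKM + 1) with limma 3.58.1 in R 4.3.3. One mean per group was fitted over all 8 libraries, with a variance trend, two-sided tests and Benjamini-Hochberg adjustment over all tested loci. A fold change on this scale understates that of low genes. Ratios used exact permutation tests (scipy 1.17.1). Alternatives changed scaling, pseudocount, filter, variance trend, letter block and libraries.

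All 9 genes and Med1 are named, with the called or most changed genes of fixed lists and the 3 loci most like Sod2 and Cybb. The genes and lists were chosen with earlier results of these data known. One gene of the lists is not reported here.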

Additional observations from a re-analysis of the deposited data

Results flagged for a closer look

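For Rac1, the KO to WT difference went one way in both lettered libraries without LPS and the other way in both with LPS, which held for no other of the 9 genes. Without LPS its level was higher in KO in both lettered libraries (202 against 182 RPKM in A, 182 against 167 in B), and with LPS it was lower in both (171 against 194 in A, 153 against 163 in B). The interaction was -0.27 on the log2(RPKM + 1) scale (95% interval -0.92 to 0.39) with an adjusted p of 1 in limma, so the difference between conditions did not pass a test. The letters are not known to pair libraries, and the KO and WT ranges overlapped in both conditions.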

How the results depend on the processing

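Over the 9 genes and Med1, 502 of the log2 changes recomputed under 9 alternative settings kept their direction and call, 5 lost the call and 13 changed sign, none of the latter called. With median-ratio scaling the sign changed for Med1 with LPS in WT (0.28), and with LPS in KO for Cyba (0.0288), Rac1 (0.0692), Sod1 (0.028) and Cat (0.0675). It also changed for Rac1 in the averaged contrast (0.20), and between genotypes for Rac2 without LPS (-0.032) and Cyba with LPS (-0.036). With quantile normalization it changed with LPS in WT for Ncf4 (-0.000706) and Med1 (0.17), for Cyba between genotypes with LPS (-0.11), and in the interaction for Cyba (-0.092) and Ncf1 (-0.00522).

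With no filter on low values 0 of the 9 genes were called in WT and 0 in KO, and 1 in the averaged contrast, as with quantile normalization (1). With only the compared groups 0 were called in WT. Loci called numbered 270 in WT, 262 in KO and 2 for KO against WT with LPS with no filter, and 130, 462 and 4 with only the compared groups. The interaction gave 0 loci with a pseudocount of 0.1 and 0 with a filter at 5 RPKM.

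The letter as a replicate block raised the loci called to 1818 for LPS in WT and 1611 in KO, and to 4108 averaged, and left the genes of the set called at 1, 1 and 2 (Cybb averaged: adjusted p = 0.0131). Of the related genes, it added calls in both genotypes for Gpx1, Gpx3, Prdx2 and Prdx5, in WT for Prdx4 and Nrros, and in KO for Akt1, Dock2 and Gpx4. Deviations from the group means correlated by letter at r = 0.20 to 0.41 in 6 pairs of groups, but with 2 letters this does not show that they pair the libraries.

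Leaving out 1 library at a time, where a group of 1 is assumed to vary like the others, moved the genes called between 0 and 2 in WT, 0 and 1 in KO, and 1 and 3 averaged. Loci called ranged from 9 (without WT A) to 2242 (without WT with LPS A) in WT and from 15 (without KO with LPS B) to 1546 (without WT with LPS B) in KO. They ranged from 1089 (without KO with LPS B) to 4531 averaged, 3 to 5 for KO against WT untreated, 0 to 6 with LPS, and 1 to 7 for the interaction. None of the sign changes concerned a called value. For LPS in WT the ranges were -0.0973 to 0.0912 for Med1, -0.0339 to 0.10 for Ncf4 and -0.0929 to 0.15 for Rac1, and in KO -0.0693 to 0.32 for Med1, -0.0438 to 0.30 for Ncf4 and -0.079 to 0.50 for Rac2. Averaged they were -0.0362 to 0.16 for Med1 and -0.00538 to 0.16 for Ncf4. For KO against WT untreated they were -1.16 to 0.13 for Cat, -0.33 to 0.16 for Cyba, -0.91 to 0.30 for Cybb, -0.38 to 0.0123 for Med1, -0.22 to 0.35 for Rac2 and -1.26 to 0.0187 for Sod2. With LPS they were -0.0787 to 0.17 for Cyba, -0.17 to 0.0432 for Cybb, -0.18 to 0.0733 for Med1, -0.71 to 0.27 for Ncf1, -0.24 to 0.0941 for Rac2 and -0.0148 to 0.24 for Sod1. For the interaction they were -0.11 to 0.38 for Cyba, -0.36 to 0.85 for Cybb, -0.0662 to 0.32 for Med1, -0.40 to 0.58 for Ncf1, -0.0767 to 0.26 for Ncf4, -0.42 to 0.15 for Rac2 and -0.23 to 1.05 for Sod2. The log2 ratios between genotypes ran from -0.60 to 0.35 for Cybb to Cyba, -1.03 to 0.20 for Sod2 to Sod1 and -0.14 to 0.19 for Rac2 to Rac1, while with LPS the 3 ratios were higher in every case. The cause of these changes was not tested. With 2 libraries per group, the spread between libraries and not the reads limits the precision.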
